A study of Ovis aries with 12 samples.

Results

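The 9 genes described here encode proteins of the myelin sheath or the enzymes that build it: MBP, MOBP, MOG, MAG, MAL, CNP, CLDN11, UGT8 and ERMN. They were chosen by symbol from a table of 33609 genes. For 8 of them the symbol stood in the table, and the remaining one, MAL, was listed under a placeholder name and was found by its NCBI GeneID. Their messenger RNA was sequenced from the hippocampus of adult ewes of Ile-de-France, a sheep breed. The 4 groups were dorsal hippocampus of chronically stressed ewes, dorsal hippocampus of control ewes, ventral hippocampus of chronically stressed ewes and ventral hippocampus of control ewes. RNA from 2 ewes was mixed in equal amounts for each library, with 3 libraries per group and 12 in all, so that 6 stressed and 6 control ewes gave tissue from both regions. All ewes were of the same breed, and the labels do not state how stress was applied. The labels shorten dorsal hippocampus to DG, and they do not mention a dissection of the dentate gyrus.

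Myelin is the layered membrane that oligodendrocytes wrap around axons in the central nervous system. MBP and MOBP hold the inner faces of the compacted layers together, MAG and MOG lie on the innermost and outermost surfaces, and CLDN11 forms the tight junctions between layers. CNP keeps channels of cytoplasm open, ERMN is a cytoskeletal protein of late oligodendrocytes, MAL organises lipid-rich membrane, and UGT8 makes galactosylceramide, the main glycolipid of myelin. In the hippocampus myelin is densest in the fibre tracts on its surface, the alveus and the fimbria.

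Library totals ranged from 12254743 to 53775720 counts, and every member was well covered: the lowest count of any member in any library was 163, for UGT8. All 9 members passed the filter on low counts, as did 17806 genes in all. Levels are given as CPM, counts scaled to a common library total and corrected by the trimmed mean of M-values (TMM), and they are compared between libraries, not between genes, because transcript lengths were not used. The 9 members together took 0.462%, 0.624% and 0.444% of all counts in dorsal stress libraries 1 to 3 and 0.586%, 0.487% and 0.671% in dorsal control libraries 1 to 3. They took 0.310%, 0.288% and 0.219% in ventral stress libraries 1 to 3 and 0.616%, 0.241% and 0.226% in ventral control libraries 1 to 3. Of the 6 ventral libraries, ventral control 1 thus reached the dorsal range. The exact (Clopper-Pearson) 95% interval of the lowest share ran from 0.217% to 0.220% and that of the highest from 0.668% to 0.674%, which covers counting error only.

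**Figure D1:**
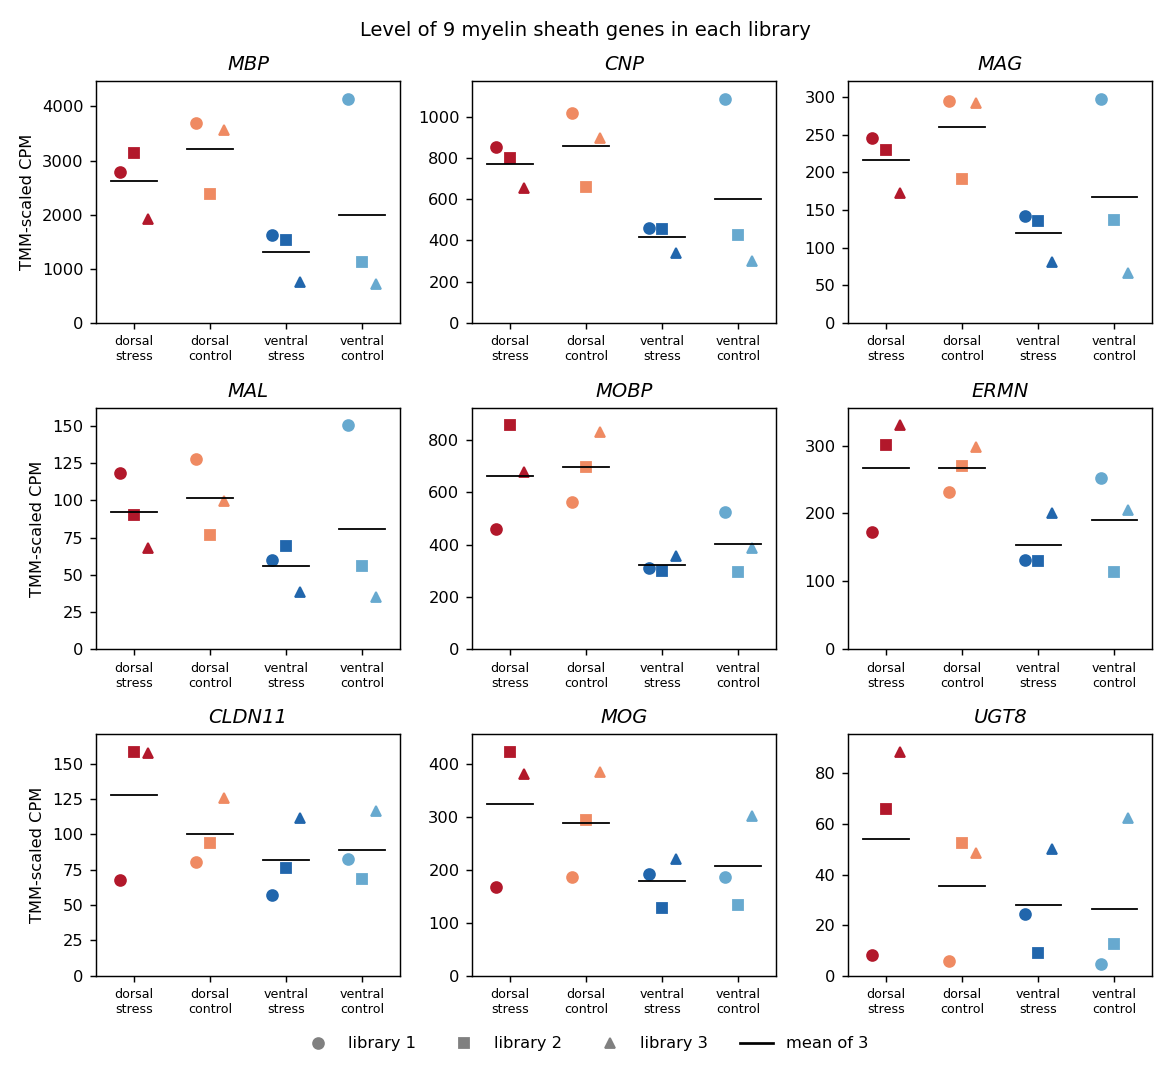
Level of each of the 9 genes in every library, in TMM-scaled CPM from 0, with 1 panel per gene. Points are libraries, their shapes give the library number and lines are means of 3. MOBP is higher in dorsal than in ventral libraries within each condition, ventral control library 1 stands high for MBP, CNP, MAG and MAL, and the same library is the lowest of its group for UGT8.

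The first comparison asked whether dorsal and ventral hippocampus differ in these genes. All 9 had positive log2 fold changes of dorsal over ventral tissue, averaged over both conditions, between 0.41 and 0.92, with a median of 0.69. Over all tested genes the median was -0.02 and 47.3% were above 0. Only MOBP passed the test across all genes, at an adjusted p under 0.05. That is 1 of 9 members, where 1.44% of all tested genes were called higher in dorsal tissue. No member was called lower, where 3.07% of tested genes were, so that 4.51% were called in either direction. At an unadjusted p under 0.05 there were 5 of 9, against 5.66% of all tested genes. In bulk tissue, fewer oligodendrocytes and less RNA per oligodendrocyte cannot be told apart. The 9 genes share their libraries, and their common sign is not 9 separate observations.

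MOBP, which packs the cytoplasmic faces of compact myelin, had 459.8, 856 and 677 CPM in dorsal stress libraries 1 to 3 and 564, 697 and 831 CPM in dorsal control libraries 1 to 3. It had 313, 301 and 356 CPM in ventral stress libraries 1 to 3 and 524, 296 and 388 CPM in ventral control libraries 1 to 3. Within stressed ewes and within control ewes every dorsal library lay above every ventral library, but dorsal stress 1 lay below ventral control 1. MOBP rose in dorsal tissue by a log2 fold change of 0.92 ± 0.19 (SE), a 1.89-fold difference (edgeR adjusted p = 0.0232). This call was lost without dorsal stress 2 or 3, dorsal control 2 or 3, ventral stress 1 or 2, or ventral control 2, at adjusted p-values from 0.0573 to 0.0704, and the log2 fold change stayed between 0.80 and 1.03 without each library in turn.

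MBP, the major protein of the cytoplasmic side of compact myelin, had 2792, 3137 and 1917 CPM in dorsal stress libraries 1 to 3 and 3699, 2384 and 3566 CPM in dorsal control libraries 1 to 3. Its levels were 1616, 1529 and 759.9 CPM in ventral stress libraries 1 to 3 and 4138, 1126 and 717 CPM in ventral control libraries 1 to 3. Dorsal and ventral libraries did not overlap in stressed ewes. In control ewes ventral library 1 was the highest of the 6. The log2 fold change over both conditions was 0.85 ± 0.40 (adjusted p = 0.398).

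MAG, an adhesion molecule that faces the axon, had 246, 229.8 and 172 CPM in dorsal stress libraries 1 to 3 and 295, 192 and 292 CPM in dorsal control libraries 1 to 3. It had 142, 135 and 80.5 CPM in ventral stress libraries 1 to 3 and 297, 136 and 66.8 CPM in ventral control libraries 1 to 3. As for MBP, the regions did not overlap in stressed ewes, and ventral control 1 was the highest of the control libraries. CNP, an enzyme of the non-compact myelin channels, repeated this order with 853, 800.2 and 655 CPM in dorsal stress libraries 1 to 3 and 1019, 658 and 898 CPM in dorsal control libraries 1 to 3. Its ventral levels were 459, 457 and 341 CPM in stress libraries 1 to 3 and 1087, 425 and 298 CPM in control libraries 1 to 3. The log2 fold changes of dorsal over ventral tissue were 0.75 ± 0.32 for MAG (adjusted p = 0.321) and 0.69 ± 0.29 for CNP (adjusted p = 0.293). MAL had 118, 90.2 and 68.1 CPM in dorsal stress libraries 1 to 3 and 127, 76.9 and 99.7 CPM in dorsal control libraries 1 to 3, and its regions overlapped in both conditions. In ventral tissue it had 59.8, 69.6 and 38.1 CPM in stress libraries 1 to 3 and 150.3, 56.1 and 35.2 CPM in control libraries 1 to 3 (log2 fold change 0.53 ± 0.34, adjusted p = 0.655).

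MOG, a surface protein of the outermost layer, had 168, 423 and 380.4 CPM in dorsal stress libraries 1 to 3 and 186, 295 and 384 CPM in dorsal control libraries 1 to 3. It had 192, 128 and 220.0 CPM in ventral stress libraries 1 to 3 and 187, 134 and 301 CPM in ventral control libraries 1 to 3. Here library 1 was the lowest of both dorsal groups, and ventral control 1 did not stand out. The tight junction gene CLDN11 had 67.7, 158 and 157 CPM in dorsal stress libraries 1 to 3 and 80.1, 94.0 and 126 CPM in dorsal control libraries 1 to 3, against 57.2, 76.2 and 111 CPM in ventral stress libraries 1 to 3 and 82.3, 68.6 and 116 CPM in ventral control libraries 1 to 3. ERMN had 173, 301 and 329.7 CPM in dorsal stress libraries 1 to 3 and 232, 271 and 298 CPM in dorsal control libraries 1 to 3, against 131, 129 and 201 CPM in ventral stress libraries 1 to 3 and 252, 114 and 205 CPM in ventral control libraries 1 to 3. The regions overlapped in both conditions for these 3 genes. Log2 fold changes were 0.66 ± 0.29 for MOG (adjusted p = 0.350), 0.41 ± 0.26 for CLDN11 (adjusted p = 0.651) and 0.64 ± 0.23 for ERMN (adjusted p = 0.202).

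UGT8, the galactosylceramide synthase, was the most variable member. It had 8.11, 65.8 and 88.5 CPM in dorsal stress libraries 1 to 3 and 5.65, 52.5 and 48.7 CPM in dorsal control libraries 1 to 3. It had 24.5, 9.17 and 50.3 CPM in ventral stress libraries 1 to 3 and 4.59, 12.5 and 62.2 CPM in ventral control libraries 1 to 3. Each group thus held a library at least 5.49 times below another of the same group, and in ventral control the factor was 13.6. Its spread within groups, an SD of 1.72 on the log2 scale, was at or above that of 98.7% of tested genes, while that of MOBP, 0.34, was at or above 30.7%. The log2 fold change of UGT8 between regions was 0.69 ± 0.79, with a 95% interval from -1.06 to 2.43 (adjusted p = 0.958).

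**Figure D2:**
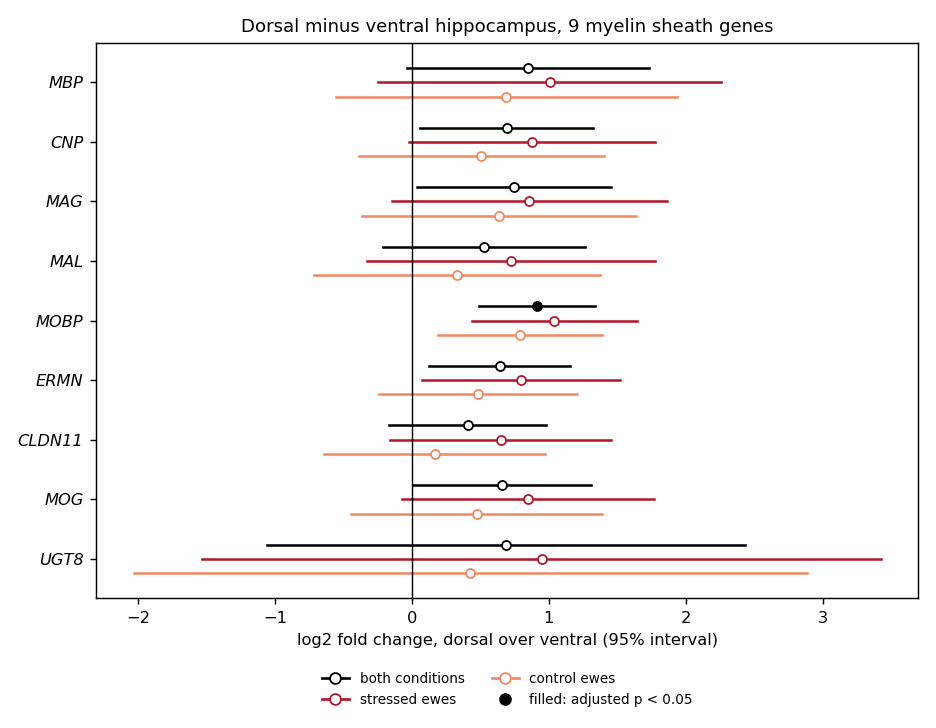
Log2 fold change of dorsal over ventral hippocampus for each gene, over both conditions (black), in stressed ewes (dark red) and in control ewes (orange), with 95% intervals from the edgeR fit. Filled points have an adjusted p under 0.05. All 27 estimates lie above 0, MOBP over both conditions is the filled one, and the intervals of UGT8 are the widest.

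Within each condition no member passed the test. In stressed ewes all 9 log2 fold changes of dorsal over ventral tissue were above 0, as were 51.1% of tested genes, and they lay between 0.65 and 1.04, with a median of 0.86 and a lowest adjusted p of 0.154, for MOBP. There 0.0842% of all tested genes were called higher in dorsal tissue and 0.359% lower (0.444% in all), and 2 of 9 members had an unadjusted p under 0.05, against 3.07% of all tested genes. In control ewes all 9 were above 0, as were 44.2% of tested genes, and they lay between 0.17 and 0.79, with a median of 0.48 and a lowest adjusted p of 0.311, also for MOBP. There 0.247% of all tested genes were called higher in dorsal tissue and 0.753% lower (1% in all), and 1 of 9 members had an unadjusted p under 0.05, against 3.25%. All 3 dorsal libraries lay above all 3 ventral libraries for MBP, MOBP, MAG and CNP in stressed ewes, 4 of 9 members against 6.07% of tested genes, and for MOBP alone in control ewes, 1 of 9 against 5.44%. No member separated all 6 dorsal from all 6 ventral libraries, which 1.97% of tested genes did.

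Single libraries weighed on these results. Without ventral control 1, edgeR called 5 of 9 members higher in dorsal tissue over both conditions, namely MBP, MOBP, MAG, MAL and CNP, with log2 fold changes of 1.41, 1.03, 1.11, 0.94 and 1.06 for these genes in that order. The share of all tested genes called higher in dorsal tissue was 2.19% in that fit. CNP was then also called in control ewes (adjusted p = 0.0480), 1 of 9 members where 0.512% of tested genes were. Without ventral control 3 instead, MOBP stayed the only member called over both conditions. In that fit 777 genes were called in either direction, against 803 with all libraries. The share called higher in dorsal tissue was not computed there, so this 1 of 9 has no share to stand beside. In that fit the log2 fold changes were lower for MBP (0.65), MAG (0.56), CNP (0.53), MAL (0.35) and MOBP (0.90). They were higher for UGT8 (1.51), MOG (0.85), CLDN11 (0.53) and ERMN (0.67). Without both ventral control 1 and ventral control 3, the libraries at the ends of the axis described below, 2 of 9 members were called, MOBP and CNP, where 1.17% of tested genes were called higher in dorsal tissue. That setting was chosen after seeing the data and leaves 1 ventral control library, which is assumed to vary like the other groups. The estimates in control ewes moved most: their median was 1.03 without ventral control 1, with a range from -0.07 for UGT8 to 1.80 for MBP. Without ventral control 3 MBP was at 0.29 and MAL at -0.02 in control ewes, and without dorsal control 3 CLDN11 was at -0.03.

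The second comparison asked whether chronic stress changed the genes within a region. No member passed in dorsal or in ventral tissue, and 0% of all tested genes were called in either. At an unadjusted p under 0.05 there were 0 of 9 members in both, against 0.315% of tested genes higher and 0.539% lower in dorsal stress, and 0.388% higher and 0.41% lower in ventral stress. These shares lie far below the rate of 0.05 that this threshold allows when nothing differs. Many genes moved together within groups along the axis described below, and how the test behaves under such correlation was not tested. These shares therefore do not show how strict the test was, and 0 of 9 does not show that stress had no effect. DESeq2 called 1 gene in each region, neither of them a member. In dorsal tissue the log2 fold changes of stress over control ranged from -0.30 for MBP to 0.60 for UGT8, with a median of -0.07 and 4 of 9 above 0. The median over all tested genes there was 0.01, and 50.9% were above 0. MOBP averaged 664 ± 199 CPM in dorsal stress and 697 ± 133 CPM in dorsal control (SD, n = 3 each), a log2 fold change of -0.07 with a 95% interval from -0.67 to 0.53. MBP averaged 2615 ± 629 CPM in dorsal stress and 3216 ± 724 CPM in dorsal control (SD, n = 3 each), and its interval ran from -1.54 to 0.94. A halving of MBP in stressed ewes thus lay within its interval.

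In ventral tissue 1 of 9 log2 fold changes of stress over control was above 0, where 45.6% of all tested genes were. The range was from -0.62 for MBP to 0.08 for UGT8, with a median of -0.32. MBP averaged 1301 ± 471 CPM in ventral stress and 1994 ± 1868 CPM in ventral control (SD, n = 3 each), with an interval of the log2 fold change from -1.86 to 0.63. MOBP averaged 323 ± 29.2 CPM in ventral stress and 403 ± 115 CPM in ventral control (SD, n = 3 each), with an interval from -0.91 to 0.28. For MBP, MAL, MAG and CNP the negative sign rested on ventral control 1. Without that library the log2 fold changes were 0.50 for MBP, 0.29 for MAL, 0.23 for MAG, 0.21 for CNP and -0.08 for MOBP, none of them called. For no member did the 3 stress libraries lie all above or all below the 3 control libraries in either region. In dorsal tissue 2.38% of tested genes lay all above and 2.76% all below, and in ventral tissue 1.38% and 1.49% did.

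The difference of the stress effects between regions was positive for all 9 members, between 0.22 and 0.52, where 58.8% of all tested genes were above 0. No member passed and 0% of all tested genes were called, and no member had an unadjusted p under 0.05, where 0.101% of tested genes with a positive and 0.157% with a negative difference did. These shares too lie far below the rate of 0.05 that this threshold allows when nothing differs. The lowest and highest estimates were those of MAG (0.22) and UGT8 (0.52), and that of MOBP was 0.25, with a 95% interval from -0.60 to 1.09. Without ventral control 1 the signs of 4 members turned, with -0.80 for MBP, -0.50 for MAG, -0.43 for MAL and -0.37 for CNP. UGT8 was then at 1.02, and the median of the 9 was 0.01 instead of 0.37. UGT8 was at -1.12 without ventral control 3 and at -0.03 without dorsal stress 3.

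**Figure D3:**
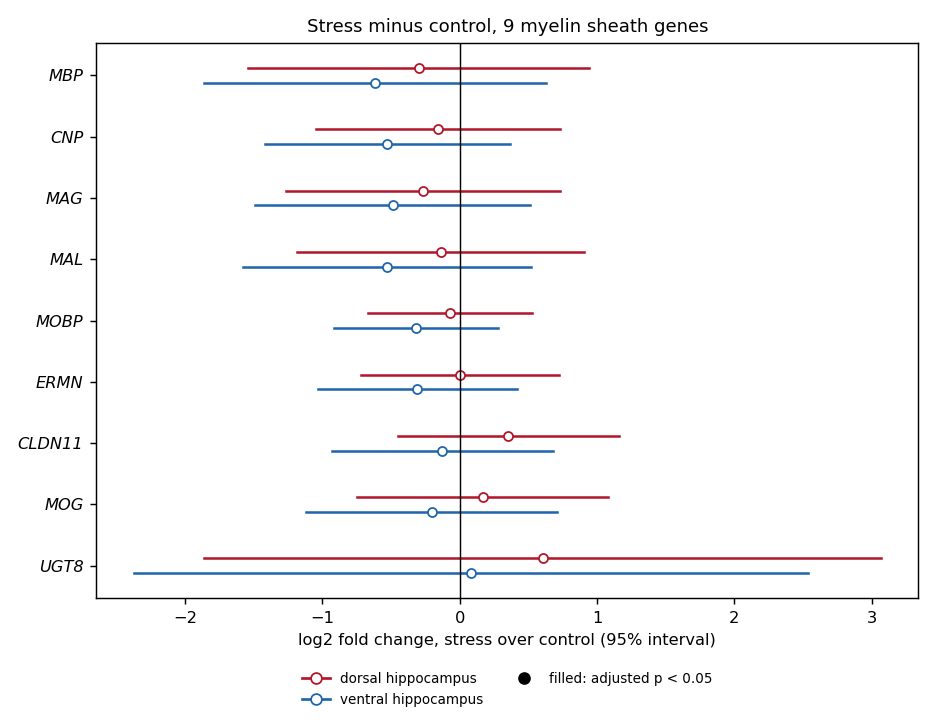
Log2 fold change of stress over control for each gene in dorsal (red) and ventral (blue) hippocampus, with 95% intervals from the edgeR fit. Every interval includes 0, and those of UGT8 are the widest.

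Library by library, some members moved in opposite directions within a group. MBP, CNP, MAG and MAL were lowest in the same library in every group: dorsal stress 3, dorsal control 2, ventral stress 3 and ventral control 3. UGT8, MOG, MOBP and ERMN were not the lowest of their group in any of these 4 libraries, nor was CLDN11. In dorsal stress 1 and in dorsal control 1, by contrast, MOBP, MOG, CLDN11, UGT8 and ERMN were all at the lowest level of their group, and MAG, MAL and CNP at the highest. In ventral stress 3 those 5 genes were at the highest level of the group. Ventral control 1 did not follow these sets, since MOBP and ERMN were highest there together with MBP, MAG, MAL and CNP. Within groups the deviations of MBP correlated at 0.31 with those of MOBP and at 0.06 with those of ERMN, against -0.66 for UGT8, -0.36 for CLDN11 and -0.29 for MOG, all over 12 libraries and as a description. These sets were read off the values and were not tested.

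The ratio of MBP to UGT8 counts shows the size of the shift without any scaling between libraries. It was 344, 47.7 and 21.7 in dorsal stress libraries 1 to 3 and 655, 45.4 and 73.3 in dorsal control libraries 1 to 3. It was 65.9, 167 and 15.1 in ventral stress libraries 1 to 3 and 901, 90.0 and 11.5 in ventral control libraries 1 to 3. The highest and the lowest ratio both belonged to ventral control, and the 4 groups overlapped. The ratio of CNP to MOG counts had its extremes in the same pair of libraries, 5.81 in ventral control 1 and 0.991 in ventral control 3.

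**Figure D4:**
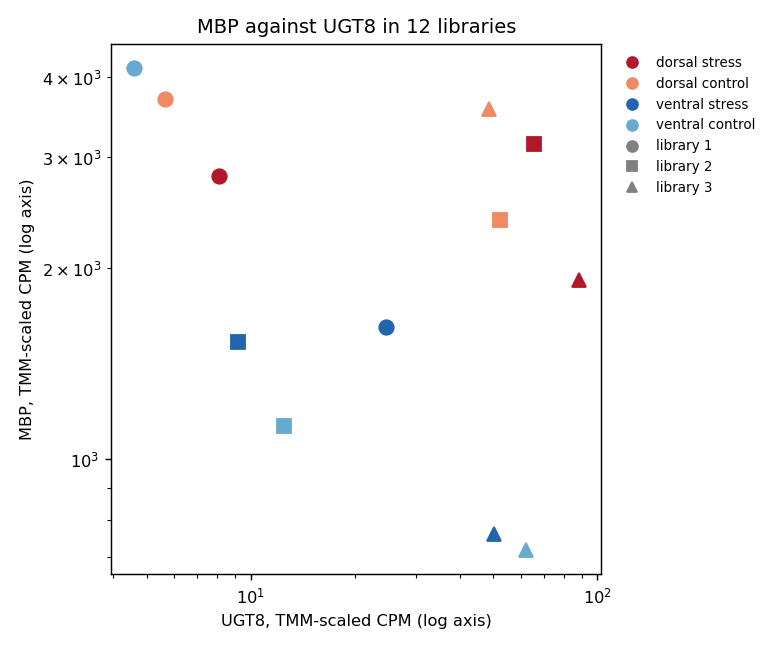
MBP against UGT8 in the 12 libraries, both in TMM-scaled CPM on log axes. Colours give the group and shapes the library number. UGT8 spans 4.59 to 88.5 CPM and MBP 717 to 4138 CPM, and ventral control libraries 1 and 3 lie at opposite corners.

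This opposition followed the main axis of spread within groups over all tested genes, the first principal component of the deviations of log2 CPM from the group means. It held 66.1% of that spread. Ventral control 1, dorsal stress 1 and dorsal control 1 had its lowest positions, -96.6, -77.4 and -64.5, and ventral control 3 the highest, 112. Those 3 libraries also had the lowest TMM factors, 0.917, 0.946 and 0.945 in that order. Whether the axis comes from the ewes or from the handling of the RNA was not tested. The correlation of a member's deviations with this axis over the 12 libraries is given as a description, since the axis was computed from the same libraries. It was 0.96 for UGT8, 0.79 for MOG, 0.73 for CLDN11, 0.42 for ERMN and 0.26 for MOBP. It was -0.93 for MAL, -0.88 for MAG, -0.84 for CNP and -0.82 for MBP. The axis was not particular to myelin genes: 40.1% of all tested genes had a correlation above 0.5 with it and 38.4% one below -0.5, against 3 and 4 of the 9 members.

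**Figure D5:**
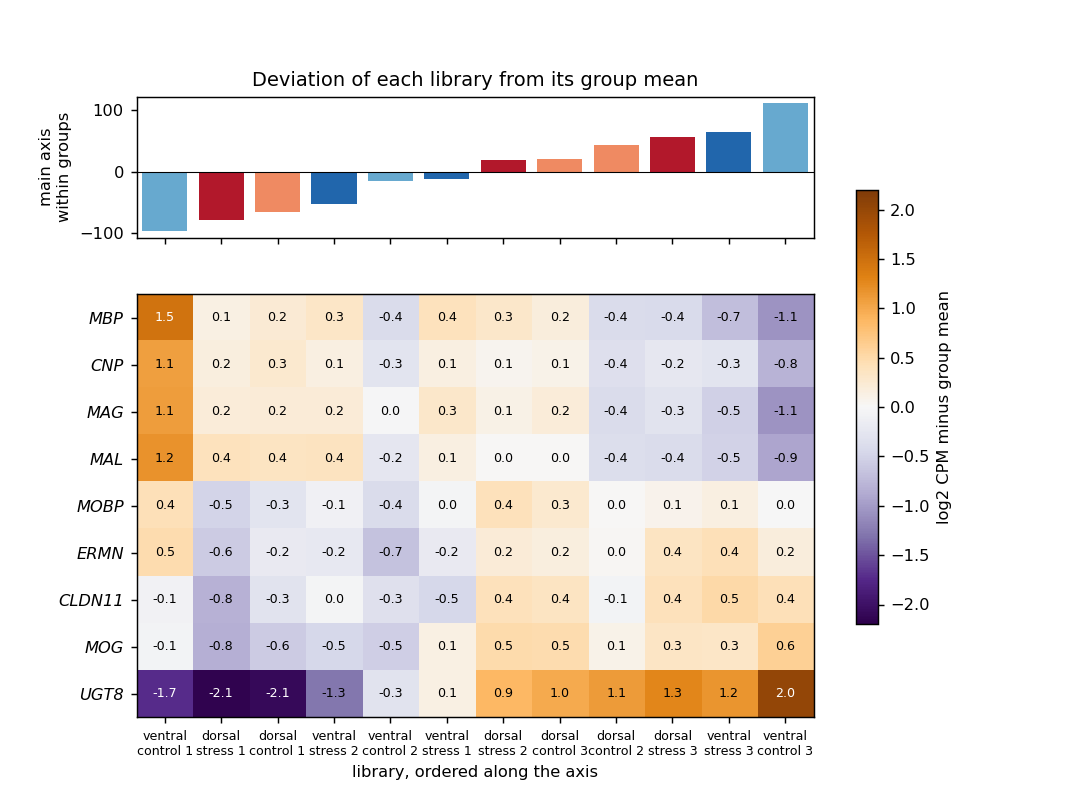
Deviation of log2 CPM from the group mean for each gene (rows) and library (columns), with libraries ordered along the main axis of spread within groups, drawn as bars on top in arbitrary units. UGT8 runs from -2.1 to 2.0, low on the left and high on the right, MBP, CNP, MAG and MAL run the other way, and MOBP stays between -0.5 and 0.4.

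Genes of other cell types split along the same axis. The astrocyte water channel AQP4 had 11.7, 9.72 and 115 CPM in ventral control libraries 1 to 3, and CLDN5, the tight junction gene of brain endothelium, had 48.1, 12.7 and 1.18 CPM. Genes of 1 cell type went both ways. Among precursor markers PDGFRA, a growth factor receptor, had 31.1, 63.3 and 146 CPM in these libraries and CSPG4, a surface proteoglycan, had 13.1, 9.38 and 4.48 CPM. FLT1, another endothelial gene, had 18.5, 27.2 and 38.2 CPM, opposite to CLDN5. Of 9 astrocyte markers 5 had a correlation above 0.5 with the axis and 2 one below -0.5, of 8 microglial markers 3 and 5, of 6 endothelial markers 3 and 2, and of 5 precursor markers 3 and 2. The myelin genes outside the member list did the same. PPP1R14A, a phosphatase inhibitor expressed in oligodendrocytes, had 113, 12.0 and 3.67 CPM in ventral control libraries 1 to 3. Of 25 other myelin and mature oligodendrocyte genes 9 had a correlation above 0.5 with the axis and 12 one below -0.5.

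With the position on this axis as a covariate, more members passed the test between regions. Over both conditions 7 of 9 were called higher in dorsal tissue, all but CLDN11 and ERMN, where 10.3% of tested genes were called in that direction with the covariate. The log2 fold changes were 1.06 ± 0.24 for MBP, 0.90 ± 0.17 for MOBP, 0.88 ± 0.15 for MAG, 0.78 ± 0.15 for CNP, 0.64 ± 0.12 for MAL, 0.63 ± 0.18 for MOG and 0.75 ± 0.24 for UGT8, with adjusted p-values from 0.00168 to 0.0498. In stressed ewes MOBP, MAG, MAL and CNP were called, 4 of 9 where 3.76% of tested genes were, and in control ewes MAG alone, 1 of 9 where 5.3% were. No member was called for stress with the covariate. The axis was computed from the same residuals that the test uses and is not independent of it. It takes up spread within groups by construction, so more calls were bound to follow, among all tested genes as among the members. The SE of MAL, for example, was 0.12 in place of 0.34, and 3761 genes were called over both conditions in place of 803. The rise to 7 of 9 is thus no separate support for a difference between regions.

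Lists of related genes were set beside the members. Of 25 other myelin and mature oligodendrocyte genes, all tested, 1 was called higher in dorsal tissue over both conditions and 0 lower, 23 had positive log2 fold changes and the median was 0.65. The called gene was GPR37, a receptor known in mice to hold back oligodendrocyte differentiation (0.89 ± 0.20, adjusted p = 0.0320). Of 9 genes for myelin lipid synthesis 1 rose, CERS2, which makes the very long chain ceramides that UGT8 uses (0.49 ± 0.11, adjusted p = 0.0324), 0 fell and the median was 0.23. Of 14 genes of the node of Ranvier and its flanks none was called, with a median of 0.09, and the smallest p belonged to the potassium channel gene KCNA1 (0.74 ± 0.20, adjusted p = 0.0696). Of 8 regulators of the lineage 1 rose, ZNF488, a zinc finger factor that promotes oligodendrocyte differentiation in mice (2.78 ± 0.39, adjusted p = 0.00367). All 8 had positive log2 fold changes and the median was 0.31. ZNF488 had 12.0, 9.07 and 4.90 CPM in dorsal stress libraries 1 to 3 and 11.4, 7.80 and 11.2 CPM in dorsal control libraries 1 to 3. It had 2.24, 1.66 and 0.924 CPM in ventral stress libraries 1 to 3 and 2.14, 0.645 and 0.644 CPM in ventral control libraries 1 to 3. All dorsal libraries thus lay above all ventral ones, as they did for 1.97% of tested genes. Of 5 precursor markers none was called, 1 had a positive log2 fold change and the median was -0.40, with PDGFRA at -0.73 ± 0.42 (adjusted p = 0.579). None of these lists had a gene called for stress in either region.

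The 10 genes outside the member list whose log2 CPM ran most like the mean of the 9 standardised members over the 12 libraries were MYRF, TF, EFHD1, SYNE3, GALNT6, SLC22A16, TMEM63A, GJB1, FAM83D and CERS2. Their Pearson correlations with that mean lay between 0.91 and 0.95, given as a description of these libraries. MYRF is the transcription factor that switches on myelin genes, TF is the iron carrier transferrin and GJB1 is a gap junction gene. Among the members MOBP ran closest to the mean, at 0.98, and UGT8 least close, at 0.26. Each member is part of that mean, so these values are not on a level with those of the 10 genes.

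Markers of other tissue moved with region too. The summed level of 10 choroid plexus markers was 459.8 to 2949 CPM over dorsal and 172 to 526 CPM over ventral libraries. Called higher in dorsal tissue were 3 of 10, TTR, AQP1 and CLIC6. Their log2 fold changes were 3.54 ± 0.68 for TTR, the transthyretin gene, 3.24 ± 0.66 for AQP1 and 1.87 ± 0.32 for CLIC6. The edgeR adjusted p-values were 0.0151, 0.0206 and 0.00770 in that order. CLIC6 had 1.57 CPM or more in dorsal and 1.11 CPM or less in ventral libraries. TTR made up the excess of the sum, with 361 to 2806 CPM over dorsal and 32.5 to 413 CPM over ventral libraries. The other 9 markers summed to 99.3 to 160.5 CPM over dorsal and 113 to 254 CPM over ventral libraries. SLC13A4 was the largest of these 9, with 47.6 to 97.1 CPM over dorsal and 83.8 to 212 CPM over ventral libraries. The log2 fold changes of KL, SLC13A4, SLC4A5 and KCNJ13, 4 of the 10, were below 0 and not called. OTX2 was at 0 counts in some libraries of both regions and SLC4A5 in some ventral control libraries. The mean log2 level of the list was 2.05 to 3.39 in dorsal and 1.64 to 2.21 in ventral libraries. When that mean entered the model, MOBP was not called (0.73 ± 0.39, adjusted p = 0.221), 4 of all tested genes were called, and MOG, CLDN11 and UGT8 had negative log2 fold changes. That mean takes in the 3 markers called for region and stands in large part for region itself. Most calls were therefore bound to be lost, and the SE of MOBP was 0.39 in place of 0.19. The fit cannot separate choroid plexus content from region, and the part of that tissue in the differences of the members was not tested. The summed level of 6 meningeal markers was 141 to 222 CPM over dorsal and 326 to 567 CPM over ventral libraries, with 5 of 6 called lower in dorsal tissue. Of 4 thalamic markers 3 were called lower in dorsal tissue (37.4 to 49.4 CPM summed over dorsal and 68.1 to 206 CPM over ventral libraries), and LHX9 was at 0 in some dorsal libraries. Of 5 striatal markers 2 were called lower in dorsal tissue, DRD1 (-3.53 ± 0.32) and PENK (-3.42 ± 0.26), and 2 had positive log2 fold changes. DRD1 had 0.899 to 2.18 CPM over dorsal and 10.8 to 25.3 CPM over ventral libraries. PENK had 2.38 to 4.59 CPM over dorsal and 28.8 to 57.8 CPM over ventral libraries. The sums of the 5 overlapped (78.7 to 137 CPM over dorsal and 94.9 to 152 CPM over ventral libraries), since PPP1R1B, at 43.1 to 129 CPM, made up much of them. The part of meningeal, thalamic and striatal tissue in the differences of the members was not tested. For astrocytes, microglia, endothelium and ependyma no marker was called between regions, with list medians of -0.24, -0.18, -0.23 and 0.65 in that order. The 9 astrocyte markers summed to 11137 to 15297 CPM over dorsal and 11035 to 15588 CPM over ventral libraries. Of 9 neuronal markers 1 was called, GAD1, lower in dorsal tissue, and their sums were 5012 to 6887 CPM over dorsal and 4584 to 6244 CPM over ventral libraries. Of 6 markers of peripheral myelin 5 were in the table and 3 were tested. Of this list DRP2 was higher in dorsal tissue (0.88 ± 0.16, adjusted p = 0.00996).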

How the data were processed

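The authors deposited whole read counts per gene for the 12 libraries. Per the labels' protocols, RNA was extracted with TriReagent and libraries were made with a stranded TruSeq kit that selects messenger RNA. The submitters' processing notes name featureCounts 2.0.0, SAMtools 1.9, Bowtie2 2.3.5.1, TopHat2 2.1.1, FastQC and bcl2fastq 2.20. The sources used here do not give the annotation or genome build, nor whether counting used the strand or how reads with several matches were counted, so no positions are printed, and reads of a gene and of an overlapping or antisense gene cannot be told apart. NCBI GeneIDs matched the RefSeq gene table of ARS-UI_Ramb_v3.0 for 28100 of 33609 genes, which named 471 placeholders, MAL among them. No sequence of the members was used.

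The counts went into edgeR 4.0.16 (R 4.3.3): filterByExpr by group, TMM scaling, robust quasi-likelihood fit with 4 group means, F test, and Benjamini-Hochberg adjustment over all 17806 tested genes. Calls needed an adjusted p under 0.05. For the SE, the size of the log2 fold change was divided by the root of its F value, and 95% intervals use the t distribution with the fit's degrees of freedom. Log2 CPM used a prior count of 2. Alternatives used DESeq2 1.42.0 and limma 3.58.1 (voom). The fit was tried on simulated counts drawn independently for each library. They held neither the axis within groups nor ewes shared between regions, so that trial does not cover these 2 features. Libraries are pools of different ewes within a group, but both regions came from the same ewes, and the fit treats libraries as independent. No pair of libraries in a group held the same counts (lowest chi-square per degree of freedom 16.8).

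The members and lists were chosen with earlier results of these data known. The genes named are the 9 members, list genes called in any of the 6 comparisons or else the list gene with the smallest p between regions (some are not reported here), and the 10 genes most like the members' mean; PPP1R14A, AQP4, PDGFRA, CLDN5, CSPG4, FLT1, OTX2, KL, SLC13A4, SLC4A5, KCNJ13 and LHX9 were added after their values were seen.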

Additional observations from a re-analysis of the deposited data

How the results depend on the processing

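Of 1224 refits of a single member, 1198 kept the side of the threshold or stayed uncalled, 18 gained a call, 8 lost one and 0 turned a called direction. Only MOBP over both conditions was called in the main fit, so all other results had no call to lose. The 1198 therefore say little about how stable that call was. MOBP was refitted there with 10 other settings and without each of the 12 libraries in turn. It stayed called in 14 of these 22 refits. The 8 losses came without 7 of the libraries and with the mean choroid plexus level in the model. Over both conditions edgeR called 1 member and 803 genes. DESeq2 called 1558 genes, the replicate block 1375 and the axis within groups as a covariate 7 members and 3761 genes, while the choroid plexus score left 0 members and 4 genes. That score, the mean log2 level of the choroid plexus list, differed between regions itself, so its fits cannot separate it from region. The axis takes up spread within groups by construction, so the gain in calls with it was bound to occur. In stressed ewes the main counts were 0 members and 79 genes. DESeq2 called 1 and 580, limma-voom 27 genes, the replicate block 314, the axis 4 and 1589, and the choroid plexus score 5 genes. In control ewes they were 0 and 178. DESeq2 called 728 genes, the replicate block 440, the axis 1 and 2003, and the choroid plexus score 0 genes. For stress DESeq2 called 1 gene in dorsal and 1 in ventral tissue, against 0 in edgeR. With both ends of the axis left out, a setting chosen after seeing the data, 2 members and 716 genes were called over both conditions, and 143 and 46 genes in stressed and control ewes. The cause was not tested. Leaving out each library in turn gave 0 to 5 members and 420 to 1091 genes over both conditions, 0 members and 1 to 159 genes in stressed ewes (lowest without dorsal stress 2), 0 to 1 members and 2 to 319 genes in control ewes (lowest without dorsal control 3; both highest without ventral control 1), and 0 of both for stress and for the difference of stress effects. RLE scaling, both other filters and thinned counts changed no count of members. The replicate block kept MOBP called (0.90, adjusted p = 0.0202), as did a block by pool (0.91, adjusted p = 0.0449). Same-numbered dorsal and ventral libraries of a condition had correlations of their deviations from -0.23 to 0.76. Differently numbered ones had correlations from -0.74 to 0.68, so this check cannot show whether equal numbers mean the same ewes. The labels do not state it, and the main fit did not take the numbers as pairs. Depth limits the members little, since each had at least 163 counts per library; the spread between libraries sets the errors.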
